A study of Mus musculus with 3 samples.

Results

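The expression of 10 genes of iron storage and transport was examined in the medial prefrontal cortex (mPFC) of the mouse, part of the frontal lobe. The genes were chosen by name, as Fth1, Ftl1, Tfrc, Trf, Slc40a1, Slc11a2, Aco1, Ireb2, Cp and Ncoa4, and all 10 were found among the 46073 genes of the RNA-seq table by their Ensembl identifiers. The tissue came from naïve C57BL/6 mice aged 3 months, which carried no stated transgene and received no stated treatment. The series holds 3 samples, 1 per assay, and the RNA sample was the one used; methylated DNA and input DNA were not analysed here. The design text states 3 RNA replicates, but both value columns of the table are equal in all 46073 rows and were counted as 1 sample. Values are FPKM, that is fragments scaled to transcript length in kilobases and to the number of mapped fragments, so levels of different genes can be set side by side. Values therefore carry no error and differences no p-value or check against replicates, and the sequencing depth is unknown.

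Iron enters brain cells mainly bound to transferrin, which is taken up by the transferrin receptor, and ferrous iron leaves endosomes through the divalent metal transporter. Inside the cell it is stored in ferritin, a shell of heavy and light subunits, and it leaves through ferroportin with the help of a ferroxidase. When iron is scarce, iron regulatory proteins bind stem-loops called iron-responsive elements, which blocks translation of ferritin mRNA and stabilises transferrin receptor mRNA. Oligodendrocytes, the myelin-forming cells, are known as iron-rich cells of the brain and as a main source of its transferrin.

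All 10 genes stood at 1 FPKM or more, the level taken as detected. Detection at this level held for 31.5% of all rows and for 58.6% of the 20635 rows of protein-coding genes. All 10 were also at 0.5 FPKM or more (35.4% of all rows) and above 0 (62.8%), and 9, all but Slc40a1, were at 5 FPKM or more (20.8%). These shares are over all rows and were not computed over protein-coding rows, of which 60.7% lay below Cp at 5.57 FPKM. The 10 genes covered a wide range, with Fth1 432-fold above Slc40a1, and had a median of 13.01 FPKM. In order, the storage gene Fth1 and the carrier gene Trf were above 100 FPKM. Ftl1, Tfrc and Slc11a2, which store or take up iron, lay between 10 and 100 FPKM. Ncoa4, the regulatory genes Ireb2 and Aco1, and the export genes Cp and Slc40a1 lay between 1 and 10 FPKM. The first 5 of this order were above the median of detected protein-coding genes, 9.86 FPKM, and the other 5 below it. Without replicates it cannot be said which neighbours in the order differ. The smallest steps were between Ncoa4 and Ireb2, at 1.05-fold, and between Ireb2 and Aco1, at 1.06-fold, and the largest was between Fth1 and Trf, at 7.14-fold.

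**Figure D1:**
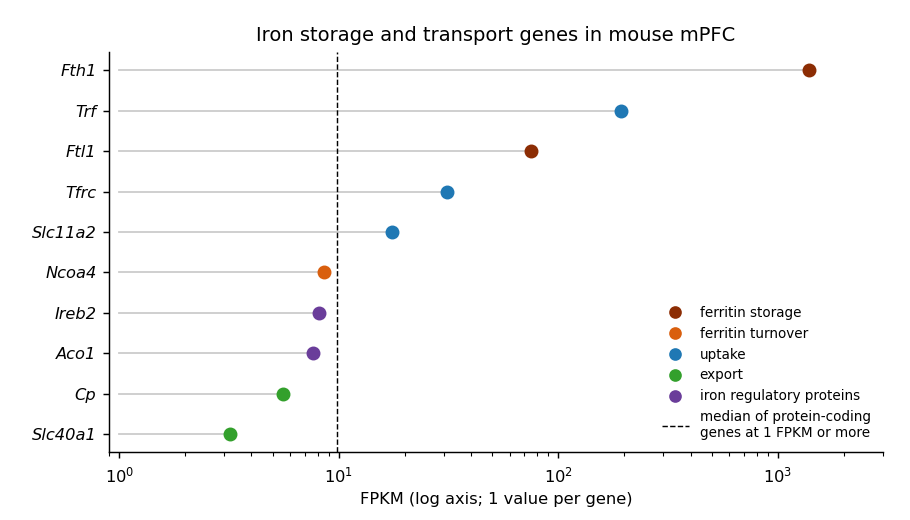
FPKM of the 10 iron storage and transport genes on a log axis, 1 point per gene, coloured by role, with the median of detected protein-coding genes (9.86 FPKM) as a dashed line. Fth1 stands apart at 1379.5 FPKM, uptake genes lie to the right of the line, and both export genes lie to its left.

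The deposited FPKM of the ferritin subunits were mostly those of the heavy subunit. Fth1, the heavy subunit with the ferroxidase site (chromosome 19, 9980600 to 9985111, GRCm38.p6), was at 1379.5 FPKM. It ranked 2 among the 20635 rows classed by symbol as protein-coding, but 35 among all 46073 rows. The highest value was 2099.8 FPKM among the former and 62907.9 FPKM among all rows. Mitochondrial genes held 50.04% of the FPKM summed over all rows. Which rows above Fth1 outside the class made by symbol code for protein was not examined. The rank of 2 therefore holds for that class only. Ftl1, the light subunit, which favours formation of the iron core (chromosome 7, 45457944 to 45459886), was at 75.1 FPKM and ranked 824. Fth1 was 18.4-fold above Ftl1 and made up 94.8% of the FPKM of both subunits and 79.8% of that of all 10 genes. Ftmt, the mitochondrial ferritin, was listed at 0. Ferritin genes have processed pseudogenes, and reads shared with such copies could have been split or lost in counting. Both ferritin values, their ratio and their shares are therefore uncertain. The table holds 13 other rows with names that begin with Fth or Ftl. Of these 8 were listed at 0 and none reached 1 FPKM, and the highest, the pseudogene Fth-ps2, was at 0.163 FPKM. Ferritin pseudogenes under other names were not searched for.

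The series is about DNA methylation, which in mammals falls mainly on CpG sites, so the bases before the annotated starts of the ferritin genes are shown with each CpG in capitals. The sequences are from RefSeq (GRCm38.p6), 250 bases each, written 5′ to 3′ on the strand of the gene. Fth1 has an upstream start at position 9980600, whose window (chr19:9980350-9980599, plus strand) holds 3 CpG sites, and a start within the span of the gene at 9982646, whose window (chr19:9982396-9982645, plus strand) holds 21. The window of Ftl1 (chr7:45459887-45460136, minus strand) holds 17.
Fth1, upstream start: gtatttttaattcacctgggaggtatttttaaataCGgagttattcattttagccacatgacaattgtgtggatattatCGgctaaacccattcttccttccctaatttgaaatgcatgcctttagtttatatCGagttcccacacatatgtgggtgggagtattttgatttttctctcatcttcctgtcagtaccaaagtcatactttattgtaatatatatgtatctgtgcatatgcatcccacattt
Fth1, start within the span: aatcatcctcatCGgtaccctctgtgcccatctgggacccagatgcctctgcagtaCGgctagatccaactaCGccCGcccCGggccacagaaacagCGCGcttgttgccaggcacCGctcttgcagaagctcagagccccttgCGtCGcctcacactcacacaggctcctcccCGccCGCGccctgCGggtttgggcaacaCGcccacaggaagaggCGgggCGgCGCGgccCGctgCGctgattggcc
Ftl1: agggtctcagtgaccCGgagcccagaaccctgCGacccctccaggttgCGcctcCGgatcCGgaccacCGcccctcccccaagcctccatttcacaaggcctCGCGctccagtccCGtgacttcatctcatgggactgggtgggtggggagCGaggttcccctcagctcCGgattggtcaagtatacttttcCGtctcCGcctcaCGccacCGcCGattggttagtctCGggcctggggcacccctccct
The upstream window of Fth1 thus holds fewer CpG sites than the other 2. Which start the Fth1 reads came from cannot be read from a value per gene.

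Ncoa4, the receptor that delivers ferritin to the lysosome for iron release (chromosome 14, 32159879 to 32179855), was at 8.53 FPKM. Fth1 was 162-fold above it. The nuclear receptor coactivator gene Ncoa1, named alike, was at 13.9 FPKM, within 2-fold of Ncoa4.

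Among the uptake genes the carrier was highest. Trf, transferrin (chromosome 9, 103208876 to 103230286), was at 193 FPKM and ranked 229 among protein-coding rows. Tfrc, its receptor (chromosome 16, 32608896 to 32632794), was at 31.2 FPKM, so that the mRNA of the carrier was 6.18-fold above that of the receptor. Tfr2, the paralog known from liver and red cell precursors, was at 4.37 FPKM, and Tfrc was 7.15-fold above it. Ltf, lactotransferrin, was at 0.206 FPKM, and Trf was 938-fold above it. Slc11a2, the divalent metal transporter (chromosome 15, 100387898 to 100424209), was at 17.5 FPKM. Its paralog of phagocytes, Slc11a1, was at 1.77 FPKM, 9.85-fold lower. The long non-coding gene Gm5475 overlaps Slc11a2 over 1017 bases and was at 0.0380 FPKM.

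The window before the first annotated start of Tfrc (chr16:32608646-32608895, plus strand) is shown in the same way, since it was among those richest in CpG of the 10 genes, with 25 sites in 250 bases.
Tfrc: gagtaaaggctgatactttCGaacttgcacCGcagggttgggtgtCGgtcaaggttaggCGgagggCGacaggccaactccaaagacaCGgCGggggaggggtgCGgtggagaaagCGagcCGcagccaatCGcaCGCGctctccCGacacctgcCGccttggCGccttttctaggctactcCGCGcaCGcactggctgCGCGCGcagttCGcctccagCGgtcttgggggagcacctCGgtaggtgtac
Cp had 2 CpG sites in the 250 bases before each of its starts that had a window. These starts lie within the span of the gene, and their windows overlap and share a site.

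Both export genes were below the other 8 of the 10 genes, though above the median of all protein-coding rows, 2.59 FPKM. Slc40a1, ferroportin, the known iron exporter of mammalian cells (chromosome 1, 45908070 to 45926532), was at 3.19 FPKM, the lowest of the 10 genes. Tfrc was 9.79-fold and Slc11a2 5.48-fold above it. Cp, ceruloplasmin, a copper ferroxidase that in brain is known from astrocytes (chromosome 3, 19956933 to 20009750), was at 5.57 FPKM. It was within 2-fold of Slc40a1 and 6.09-fold above its paralog Heph, hephaestin, at 0.915 FPKM. With a pseudocount of 5 in place of 1 the pair Cp and Heph differed by 0.84 on the log2 scale and was no longer 2-fold apart. Hps3, a gene of lysosome-related organelle formation at 4.88 FPKM, overlaps Cp over 13806 bases. Whether counting used strand is not given in the sources used here, so reads from the shared stretch may have counted for either gene.

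The iron regulatory proteins were close to each other. Aco1, which acts as cytosolic aconitase when it holds an iron-sulfur cluster and binds RNA when it does not (chromosome 4, 40143265 to 40199009), was at 7.64 FPKM. Ireb2, the paralog that is controlled by degradation (chromosome 9, 54862658 to 54912534), was at 8.11 FPKM, 1.06-fold above Aco1. Fbxl5, the iron-sensing F-box protein that marks Ireb2 for degradation, was at 37.3 FPKM, 4.602-fold above Ireb2. In all, 13 of the 16 pairs compared were at least 2-fold apart on the log2(FPKM + 1) scale, a scale that understates differences of low genes. The share of other gene pairs that far apart was not computed, so the count does not set pairs of iron genes apart from others. The pairs within 2-fold were Cp and Slc40a1, Aco1 and Ireb2, and Ncoa4 and Ncoa1.

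**Figure D2:**
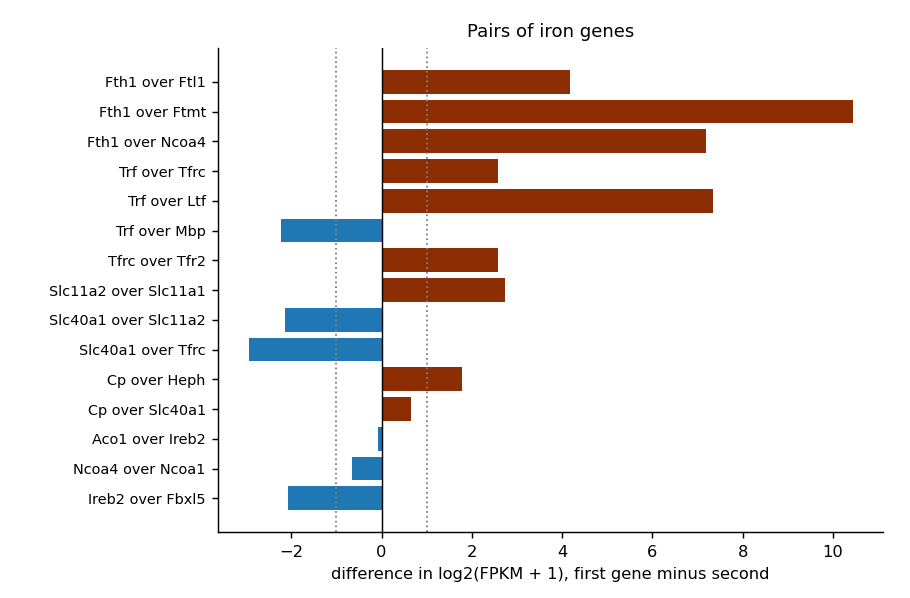
Difference in log2(FPKM + 1) between the genes of 15 of the 16 pairs, first gene minus second, with dotted lines at a 2-fold difference. Fth1 exceeds Ftl1 by 4.18, the bar of Slc40a1 and Tfrc reaches -2.94, and the bar of Aco1 and Ireb2 is close to 0.

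Around these 10 genes, 79 other genes of iron and haem biology in 7 lists were examined, of which 60 (75.9%) were detected, with a median of 8.52 FPKM. None was above Fth1, 2 were above Trf, and 28 were below Slc40a1. Detection at 1 FPKM held for 31.5% of all rows and 58.6% of protein-coding rows. Levels over all rows had a median of 0.0414 FPKM and over protein-coding rows of 2.59 FPKM.

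Genes that reduce, oxidise or carry iron in other ways were mostly low, with 7 of 16 at 1 FPKM or more and a median of 0.955 FPKM. Slc22a17, the receptor of lipocalin, was at 168 FPKM, and the iron chaperone genes Pcbp1 and Pcbp2 were at 48.3 and 43.0 FPKM. The ferrireductase gene Steap4 was at 0.0636 FPKM and the ferroxidase gene Hephl1 at 0.00162 FPKM. Genes of systemic iron regulation, known mainly from liver, had 7 of 12 at that level and a median of 2.49 FPKM. Their share detected, 58.3%, was near the 58.6% of protein-coding rows. Smad4, Neo1 and Acvr1, which also serve other signalling pathways, led with 14.3, 10.8 and 8.67 FPKM. Tmprss6, the protease that lowers hepcidin, was at 0.121 FPKM, and Hamp, the gene of the hormone hepcidin that removes ferroportin from membranes, was listed at 0. In the list of regulatory protein turnover and ferritin relatives the median was 37.3 FPKM and 6 of 7 genes passed 1 FPKM. The ubiquitin ligase subunits Skp1a, Cul1 and Rbx1 were at 267, 85.6 and 38.8 FPKM, and Herc2, a ligase that acts on Ncoa4, was at 14.1 FPKM.

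Mitochondrial iron and iron-sulfur cluster genes all passed 1 FPKM (18 of 18) and had a median level of 13.5 FPKM, close to that of the 10 storage and transport genes. The chaperone gene Hspa9 at 55.1, the cluster scaffold gene Iscu at 49.96 and Nfu1 at 35.2 FPKM were highest, and the iron importer gene Slc25a37 was among the lowest at 4.18 FPKM. Haem synthesis was covered by 9 of 9 genes at a median level of 11.6 FPKM. Urod was at 54.7, the first enzyme Alas1 at 27.7 and the iron-inserting Fech at 15.2 FPKM. Alas2, the form of the first enzyme in red cell precursors, was lowest at 1.05 FPKM. Of the genes for haem degradation and transport 8 of 12 passed 1 FPKM, and the median was 4.94 FPKM. The scavenger receptor gene Lrp1 at 68.8, the constitutive haem oxygenase gene Hmox2 at 65.9 and the haem transporter gene Slc48a1 at 45.6 FPKM were highest, and the plasma proteins Hpx and Hp lowest, at 0.143 and 0.130 FPKM. All 6 other genes with a reported iron-responsive element in their mRNA passed 1 FPKM, and they ranged around a median of 104.9 FPKM, from Alas2 at 1.05 and Epas1 at 17.3 FPKM to App at 444 FPKM.

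**Figure D3:**
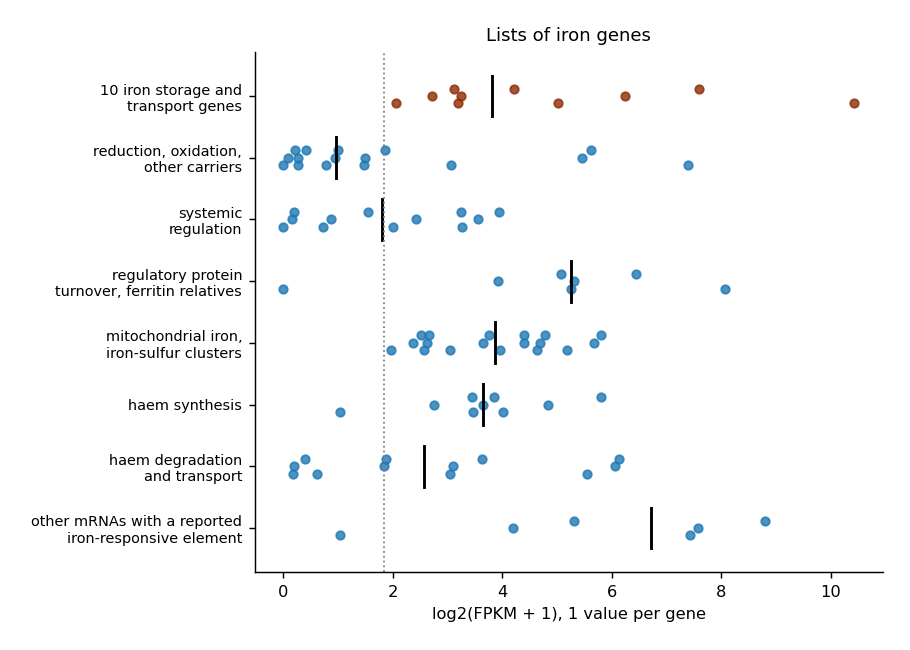
Levels on the log2(FPKM + 1) scale, 1 point per gene, for the 10 iron storage and transport genes (brown) and the 7 other lists (blue), with the median of each list as a black bar and that of all protein-coding rows as a dotted line. Mitochondrial iron genes have a median of 13.5 FPKM beside 13.01 for the 10 genes, and genes of reduction, oxidation and other carriers one of 0.955 FPKM.

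The tissue held RNA of several cell types. Counts of markers at 1 FPKM or more stand beside 58.6% of protein-coding rows at that level. The 8 neuron markers all passed 1 FPKM (median 272 FPKM), led by Snap25 and Eno2 at 1279 and 499 FPKM, with Rbfox3 lowest at 80.0 FPKM. So did the 12 oligodendrocyte markers (median 47.9 FPKM). The myelin gene Mbp was at 912 FPKM and Myrf at 8.11 FPKM, and Trf was 4.72-fold below Mbp. The 10 astrocyte markers (median 60.2 FPKM) ran from Sox9 at 4.66 to Glul and Aldoc at 606 and 613 FPKM. The 10 microglia markers (median 14.2 FPKM) had C1qb among the highest at 39.7 FPKM and Tmem119 lowest at 7.66 FPKM. Of oligodendrocyte precursors 6 of 6 markers passed, around a median level of 5.61 FPKM, from Cspg4 at 1.66 to Sox10 at 10.1 and Olig1 at 20.9 FPKM. Of endothelium 8 of 8 markers passed, around a median level of 4.66 FPKM, from Kdr at 1.40 to Slco1a4 at 11.4 and Ly6c1 at 19.9 FPKM.

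Choroid plexus also makes transferrin. Its markers were listed together with those of ependyma, and 8 of 8 were above 1 FPKM, with a median of 2.76 FPKM for the joint list. Trf lay within the range of the oligodendrocyte, astrocyte and neuron lists and of the joint choroid plexus and ependyma list alike. The choroid plexus gene Ttr, transthyretin, stood at 566 FPKM, 2.93-fold above Trf, while Folr1 was at 12.5 and Aqp1 at 1.66 FPKM. Of 6 blood markers 5 passed (median 9.12 FPKM), and globin mRNA was present, Hbb-bs at 46.4 and Hba-a1 at 15.04 FPKM, while Ptprc of leukocytes was at 0.577 FPKM. The part of any of these cell types in the level of Trf, Fth1 or the other iron genes was not tested. In bulk tissue, more cells of a type and more RNA per cell cannot be told apart.

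CpG content at the annotated starts also varied among the genes. RefSeq windows of 300 bases, 250 before and 50 after a start, were found for 7 of the 10 genes, in 12 windows, some of which overlap. No window was matched for Trf, Slc40a1 and Slc11a2. The ratio of observed to expected CpG, which is near 1 where CpG has not been depleted, had a median of 0.655 over the 12 windows, 0.584 over the 20208 windows of protein-coding genes and 0.384 over all 32851 windows. A ratio of 0.6 or more was found in 8 of 12 windows, beside 48.8% of protein-coding windows. Ireb2 had the highest ratio, 0.962, at a start within its span, followed by Tfrc at 0.940 and 0.906. Aco1, the paralog of Ireb2, stood at 0.470. The windows of Ncoa4 were at 0.625, 0.636 and 0.878, and that of Ftl1 at 0.673. Fth1 was at 0.405 at its upstream start and 0.827 at the start within its span. Cp was lowest, at 0.187 and 0.338. Methylation of these windows was not analysed here.

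**Figure D4:**
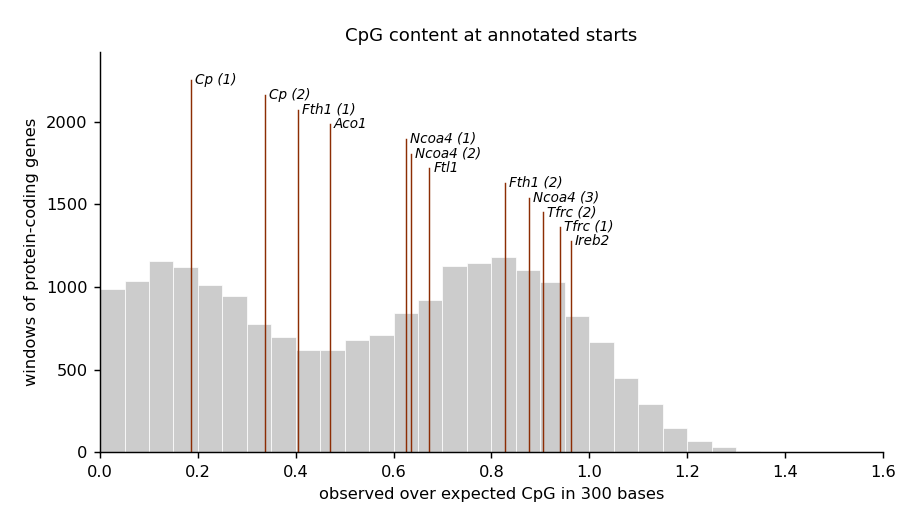
Observed over expected CpG in 300 bases at annotated starts, as a histogram of the windows of protein-coding genes (grey), with the 12 windows of the iron genes as brown lines, numbered along the gene where there are several. Cp lies at the low end (0.187 and 0.338) and Tfrc and Ireb2 at the high end (0.906 to 0.962).

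An iron-responsive element was looked for in the 50 bases after each start, as a C, then NNNNN, then the loop CAGTGN, with at least 4 of 5 bases on either side of the loop able to pair. In these 50 bases it was found for 0 of the 12 starts of the iron genes, on either strand, and for 0.122% of all starts on the strand of the gene and 0.1005% on the other. The 250 bases before the starts were not searched for it, and bases further into the transcripts were not used here. With a match at so few of all starts, 0 of 12 cannot set the iron genes apart from other genes. An element that lies further into ferritin or transferrin receptor mRNA, or is cut by the end of the 50 bases, would be missed. Genes without a window were not searched. The result therefore does not decide whether these mRNAs carry the element.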

How the data were processed

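RNA of the mPFC was measured by RNA-seq in 1 sample. Per the labels' protocols, DNase-treated RNA was made into TruSeq v2 libraries. The tools were CASAVA 1.8.2, TopHat and Cufflinks, with build mm10, per the submitters' processing notes. Not given in the sources used here are the versions of the latter tools, the annotation, the use of strand and the way replicates were combined. The authors deposited FPKM, which depend on the assumed transcript length. Of 46073 identifiers 45139 were matched to a symbol. Gene classes, coordinates and start windows came from RefSeq for GRCm38.p6, the assembly of mm10, matched by symbol. The members and lists were chosen with earlier results of these data known. All 156 list genes were matched. The text names the 10 genes, both genes of every pair, the 3 highest and 2 lowest of each other iron list, and the 2 highest and the lowest of each marker list, except a few not reported here, which the counts and medians include. Ratios, ranks, medians and log2(FPKM + 1) differences were computed with Python 3.11.15, numpy 2.4.6 and pandas 2.3.3, and checked on simulated data. Alternatives were tried for the floor, pseudocount, scaling, list summary, window and element pattern.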

Additional observations from a re-analysis of the deposited data

How the results depend on the processing

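No spread between replicates was available, so a value was taken as moved at a change of 1.5 times. Detection of the 10 genes held at floors of 0.5 FPKM and above 0, and 9 of 10 passed a floor of 5 FPKM, the exception being Slc40a1. Counts of the other lists moved more: for other carriers from 7 to 4 at a floor of 5 FPKM and 16 above 0, for systemic regulation from 7 to 4 and 11, and for haem degradation and transport from 8 to 12 above 0. The order of the 10 genes does not depend on scaling, since each scaling multiplies every gene by 1 factor. Their median was 16.5 after scaling all rows to the sum used for TPM and 33.03 after the same scaling without mitochondrial genes, which held 50.04% of summed FPKM. The count of pairs at least 2-fold apart was 13 with a pseudocount of 0.1 and 12 with 5, and no pair changed direction. For these counts too, no share over other gene pairs was computed. The list of reduction, oxidation and other carriers had a geometric mean of 2.72 FPKM and a median of 7.33 FPKM over detected genes. Over detected genes the median was 8.52 FPKM for systemic regulation and 9.46 FPKM for haem degradation and transport. The geometric mean of the other mRNAs with a reported element was 51.9 FPKM. On the strand of the gene, the element pattern was found in the 50 bases after 0 of 12 starts with no pairing asked and with all 5 bases paired. Over all starts these patterns were found for 1.34% and 0.00609%, so 0 of 12 again does not decide whether the mRNAs carry the element. No paired analysis was possible because the table gives 1 value per gene, and leaving out a replicate could not be run for the same reason. Depth is unknown, so no counting limit can be given for low genes such as Hephl1.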

Other observations

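The letters TATAA, the core of a TATA box, were searched on both strands of the 300-base windows, a search chosen after the values were seen. They occurred in 24.9% of all windows and in 6 of the 12 windows of the iron genes. On the strand of the gene, their first base was at position 27 after the start of Fth1 within its span and at position 18 after that of Ftl1, counted from 1 at the start. On that strand they lay before the start in a window each of Cp (-25), Ncoa4 (-27) and Tfrc (-172), counted from -1 at the base before it. On the opposite strand they lay in the upstream window of Fth1 (-123) and in the same window of Cp (-26), positions again being those of the first base along the gene. A match is a description of letters and not a site of factor binding.

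The letters GGGCGG, the core bound by Sp1, occurred in 35.7% of all windows and in 6 of the 12. The letters ACGTG, the core of a hypoxia response element, occurred in 19.6% of all windows and in 4 of the 12, which belonged to Tfrc and Ncoa4. The matches in the 2 Tfrc windows are 1 site, since these windows overlap there. The letters TGACNNNGC, the core of an antioxidant response element, occurred in 12.4% of all windows and in 1 of the 12, a window of Ncoa4.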
